A study of Mus musculus with 88 samples.

Results

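Blood of untreated SNF1 mice at week 14 was compared with blood of untreated SNF1 mice at week 12, the last 2 untreated time points of the series. The comparison takes 16 of the 88 arrays, 8 whose titles name untreated mice of week 14 and 8 whose titles name untreated mice of week 12, and all 45037 probe sets that are not controls. SNF1 mice are the first generation of a cross of SWR and NZB mice and develop lupus nephritis without treatment. Both groups had received no treatment, and the labels give the same strain and tissue for both, whole blood. By the study's methods the mice were female and served as age-matched controls for mice injected with pristane, a hydrocarbon oil that accelerates lupus, so that the weeks count from the injection of the treated mice. The series also holds untreated mice of weeks 2, 4 and 8, pristane-treated mice of the same 5 weeks, and mice with spontaneous disease titled week 36, with 8 arrays in each of the 11 groups. By the study's methods 36 weeks is the age of the mice with spontaneous disease, so that it does not count from an injection. The methods describe 2 longitudinal experiments and the labels do not say which one an array came from, whether the mice of week 14 were those of week 12, or which plate held each array. A difference between the weeks and a difference between plates or experiments cannot be told apart here, and p-values measure the spread between these samples. For limma p-values that spread is taken within all 11 groups of the 88 arrays, not only within the 2 groups compared.

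Much of the RNA in whole blood comes from reticulocytes, the youngest red cells, which still carry messenger RNA for globins, heme enzymes and membrane skeleton proteins and lose it as they mature. Blood monocytes are of different kinds in the mouse. Classical monocytes carry Ly6C and the chemokine receptor Ccr2 and enter inflamed tissue, and patrolling monocytes carry Cx3cr1, depend on the transcription factor Nr4a1 and crawl along the vessel wall. A whole-blood array measures shares of a mixture, so that fewer cells of a type and less of its RNA per cell cannot be told apart.

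Between weeks 12 and 14 the list means of red cell genes were lower and those of monocyte genes were higher. Among 26 measured genes of the red cell membrane and skeleton the median log2 change was -0.78, and among 21 genes of reticulocyte maturation it was -0.71. Among 21 genes of patrolling monocytes the median was 0.73, and among 28 genes of classical monocytes it was 0.57. Over all 17097 genes tested the median was -0.04, and 43.5% of them had a higher mean at week 14. Few single genes passed the test across all probe sets, and the 4 median shifts rest mostly on members that did not.

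In the fit over all 88 arrays (limma, Benjamini-Hochberg adjustment over 45037 probe sets), 8 genes passed an adjusted p of 0.05 with a change of over 2-fold, which is 0.0468% of the genes tested. Of these, 4 were higher at week 14 and 4 were lower (0.0234% each). The adjusted p of all 8 lay between 0.045 and 0.0472, just inside the threshold, and without a fold threshold 12 genes passed, 6 in each direction (0.0351% each). At an unadjusted p under 0.05 there were 1245 higher genes (7.28%) and 1666 lower genes (9.74%). The count of called genes was unstable: it was 0 when any 1 of 11 arrays was left out, 1 without week 12 replicate 8, 11 without week 14 replicate 2, 26 without week 12 replicate 7, 98 without week 12 replicate 1 and 128 without week 14 replicate 8.

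Both arrays whose removal gave the most calls, week 12 replicate 1 and week 14 replicate 8, stood apart from their own group in the direction of the other week, and they are ringed in the plots of single arrays. The interquartile range of log2 values over an array was 3.09 for week 14 replicate 8, against 3.47 to 3.78 for the other 7 arrays of week 14. It was 3.68 for week 12 replicate 1, above the mean of week 14, 3.53 ± 0.20 (SD, n = 8), and the mean of week 12 was 3.30 ± 0.18 (SD, n = 8). The difference in range between the groups had a two-sided p of 0.0323 in an exact permutation test, or 0.0661 after adjustment over the 4 array measures tested, which were also the array median, the actin 3′-5′ difference and the Gapdh 3′-5′ difference. The 3′-5′ difference of actin probe sets, in which a higher value goes with more degraded or shorter RNA, was 1.52 ± 0.31 at week 14 and 1.24 ± 0.20 at week 12 (SD, n = 8 each, exact permutation p = 0.0496, adjusted p = 0.0661). The part of array spread and RNA quality in the results was not tested beyond the fits given beside them. Without both arrays 272 genes were called (1.59%), 114 higher and 158 lower, among them all 8 genes called with all arrays. That pair of arrays was chosen for removal after the data were seen, because they lie towards the other week. Larger changes and smaller p-values follow from that choice, so that all counts, folds and medians without the pair are given as a description.

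**Figure D1:**
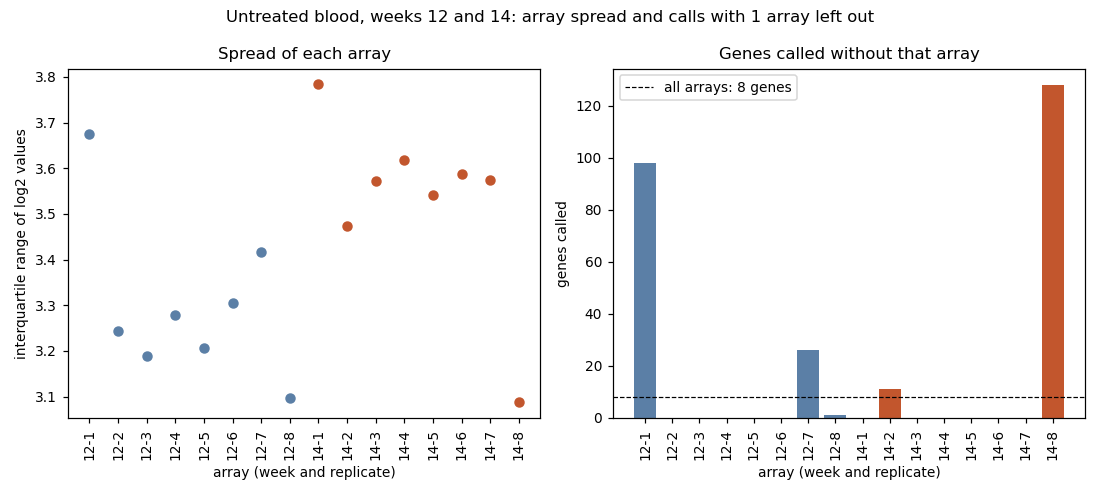
Left, the interquartile range of log2 values of each of the 16 arrays of untreated mice, and right, the number of genes called when that array is left out (blue, week 12; orange, week 14; dashed line, 8 genes with all arrays). Week 12 replicate 1 has a range like that of week 14, week 14 replicate 8 has the lowest range shown, and without either of them 98 and 128 genes are called.

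The 4 called genes with higher signal at week 14 were a transcription factor of the Wnt pathway, a Rab GTPase-activating protein, a subunit of the phagocyte oxidase and a Kruppel-like factor. Tcf7l2, which binds beta-catenin to regulate Wnt targets, had a log2 signal of 3.41, 4.63 and 6.08 at week 12 (lowest, median and highest of 8) and of 5.18, 6.74 and 7.13 at week 14. Of the 8 arrays of week 14, 7 lay above the highest array of week 12, and the lowest was replicate 8. The change was 3.39-fold (95% interval 1.99 to 5.77, limma adjusted p = 0.045). The other probe sets of Tcf7l2 also had higher means at week 14, by 1.03, 0.57 and 0.22 on the log2 scale, with adjusted p of 0.0736, 0.278 and 0.6 in limma.

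Tbc1d9, a member of the family of Rab GTPase-activating proteins, measured 4.15, 4.63 and 6.36 at week 12 and 5.04, 6.62 and 7.47 at week 14 (lowest, median and highest log2 signal). Again 7 of 8 arrays of week 14 exceeded all of week 12, and replicate 8 was the exception. The change was 2.94-fold (1.85 to 4.67, limma adjusted p = 0.045), and a dimmer probe set of the gene had a log2 change of -0.15 with an adjusted p of 0.663. Cybb, the membrane subunit gp91phox of the oxidase with which phagocytes kill microbes, measured 6.26, 7.41 and 8.39 at week 12 and 8.27, 8.65 and 9.17 at week 14. Of the 8 arrays of week 14, 6 lay above all of week 12. The change was 2.42-fold (1.71 to 3.44, limma adjusted p = 0.045), and both other probe sets were higher too, by 1.12 and 1.01 on the log2 scale (adjusted p = 0.0601 and 0.0736). Klf11, a Kruppel-like transcription factor, measured 4.85, 5.50 and 6.63 at week 12 and 5.69, 6.81 and 7.52 at week 14, a change of 2.17-fold (1.54 to 3.06, limma adjusted p = 0.0472).

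The 4 called genes with lower signal were Alox15, Bcl2l1, Borcs8 and the unnamed transcript 2310010J17Rik. Alox15, a lipoxygenase of eosinophils and macrophages, measured 4.86, 5.56 and 6.21 at week 12 and 3.67, 4.30 and 4.65 at week 14. All 8 arrays of week 14 lay below all of week 12, and the signal fell 2.45-fold (1.66 to 3.62, limma adjusted p = 0.045). Of all genes tested, 0.135% had groups that did not overlap in this direction and 0.17% in the other. Bcl2l1 encodes Bcl-xL, which keeps maturing red cells alive, and was the only member of the 7 erythroid lists to pass the test. It measured 10.18, 10.96 and 11.29 at week 12 and 8.81, 9.98 and 11.24 at week 14, where 6 of 8 arrays lay below all of week 12 and replicate 8 had the highest value of its group. The fall was 2.09-fold (1.52 to 2.88, limma adjusted p = 0.045), and its next brightest probe sets had log2 changes of -1.20 and -1.44 (adjusted p = 0.132 and 0.0736).

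Borcs8, a subunit of the complex that moves lysosomes along microtubules, measured 9.29, 10.21 and 10.48 at week 12 and 8.34, 8.99 and 9.83 at week 14, a fall of 2.07-fold (1.51 to 2.83, limma adjusted p = 0.045). Its dimmer probe set had a log2 change of -0.13 (limma adjusted p = 0.665). 2310010J17Rik measured 6.24, 7.18 and 7.84 at week 12 and 5.62, 5.85 and 6.29 at week 14, a fall of 2.27-fold (1.60 to 3.23, limma adjusted p = 0.045). Of the 8 arrays of week 14, 6 lay below all of week 12 for Borcs8 and 7 for 2310010J17Rik. Without a fold threshold Cblb and Helb were also higher and Ogfrl1 and Il17rc lower, and these 4 were chosen after their values were seen. Cblb, a ubiquitin ligase that restrains lymphocyte activation, changed 1.75-fold, and Helb, a DNA helicase, changed 1.63-fold with all 8 arrays of week 14 above all of week 12. Ogfrl1 fell 1.95-fold, and Il17rc, a subunit of the receptor for interleukin 17, fell 1.49-fold with no overlap between the weeks (limma adjusted p = 0.045 for all 4). Groups without overlap were found for 0.17% of all genes as higher and 0.135% as lower. Dimmer probe sets had log2 changes of 0.25 for Cblb, 0.06 and 0.27 for Helb, -0.20 and -0.74 for Ogfrl1 and -0.03 for Il17rc (limma adjusted p = 0.182 to 0.943).

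**Figure D2:**
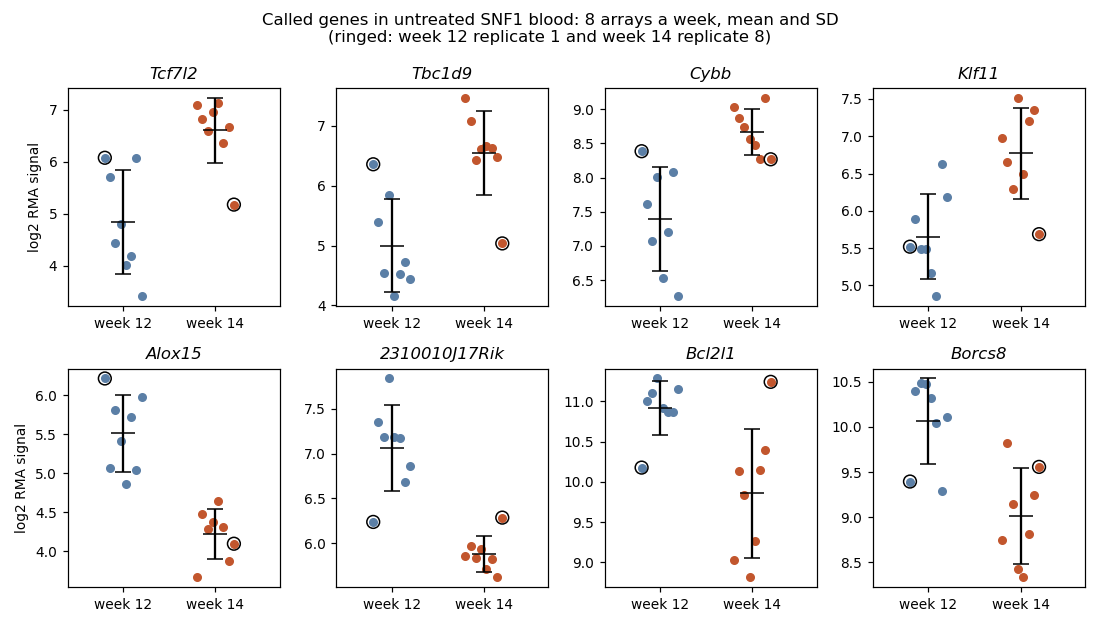
Log2 RMA signal of the 8 called genes on each array of untreated mice at weeks 12 (blue) and 14 (orange), with the mean and SD of 8 arrays, and with week 12 replicate 1 and week 14 replicate 8 ringed. Alox15 is the only one of the 8 without overlap between the weeks, and week 14 replicate 8 has the lowest Tcf7l2, Tbc1d9 and Klf11 and the highest Bcl2l1 of its group.

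The promoters of 2 red cell genes with lower means and 2 monocyte genes with higher means at week 14 are shown. Of these genes only Bcl2l1 passed the adjusted test. Every window shown holds the short word marked in it by capitals. Most matched genes of the membrane, reticulocyte and patrolling monocyte lists described below lack the word marked for their list. The windows are therefore shown as cases that hold a word, not as typical of their lists. The windows are the 250 bases before a RefSeq start site in GRCm38.p6, 5′ to 3′ on the strand of the gene. In Bcl2l1 (chr2:152828490-152828739, minus strand, the most downstream of its 3 annotated starts) and Kel (chr6:41704326-41704575, minus strand, which encodes the Kell blood group protein), capitals mark AGATAA or its reverse complement TTATCT, the core that GATA factors bind. In Treml4 (chr17:48264045-48264294, plus strand) and Fcgr4 (chr1:171018676-171018925, plus strand), both receptors of patrolling monocytes, capitals mark GGAAGT or its reverse complement ACTTCC, a core of the sites of ETS factors such as PU.1.
Bcl2l1: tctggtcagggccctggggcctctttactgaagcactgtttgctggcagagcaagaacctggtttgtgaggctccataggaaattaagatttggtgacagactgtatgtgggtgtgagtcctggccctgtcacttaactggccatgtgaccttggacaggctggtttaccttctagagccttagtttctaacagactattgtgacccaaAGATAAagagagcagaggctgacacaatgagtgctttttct
Kel: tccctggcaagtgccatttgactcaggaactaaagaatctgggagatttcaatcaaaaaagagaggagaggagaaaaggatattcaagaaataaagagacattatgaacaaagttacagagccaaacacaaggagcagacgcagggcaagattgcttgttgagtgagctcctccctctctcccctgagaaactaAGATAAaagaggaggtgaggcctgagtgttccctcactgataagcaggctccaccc
Treml4: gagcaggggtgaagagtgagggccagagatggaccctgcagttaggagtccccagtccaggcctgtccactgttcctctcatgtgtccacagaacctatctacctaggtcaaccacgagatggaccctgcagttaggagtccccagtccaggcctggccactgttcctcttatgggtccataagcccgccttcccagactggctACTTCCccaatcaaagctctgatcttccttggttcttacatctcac
Fcgr4: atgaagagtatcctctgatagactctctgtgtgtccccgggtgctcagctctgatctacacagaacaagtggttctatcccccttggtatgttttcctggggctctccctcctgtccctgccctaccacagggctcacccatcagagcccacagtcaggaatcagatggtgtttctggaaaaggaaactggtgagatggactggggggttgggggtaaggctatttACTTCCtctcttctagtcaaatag
The AGATAA core starts 41 bases before the start site in Bcl2l1 and 56 bases before it in Kel, and the reverse complement of GGAAGT starts 46 bases before it in Treml4 and 24 bases before it in Fcgr4. Searched on both strands in windows of the same length, AGATAA was present for 11.4% of 27025 RefSeq genes. Among matched genes it was present for 28.6% of the red cell membrane list (6 of 21), 17.6% of both the reticulocyte and the erythroid transcription factor list (3 of 17 each), 8.33% of heme synthesis and 6.25% of red cell enzyme genes, and for 16.7% of classical and 5.26% of patrolling monocyte genes. GGAAGT was present for 22.2% of all genes, 42.1% of patrolling (8 of 19) and 54.2% of classical monocyte genes (13 of 24), and for 8.33% to 23.5% of the same 5 red cell lists. Neither word contains the other, and a match describes letters in a window, not a bound site.

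Red cell genes were taken as 7 lists with 118 measured members. Of these, 60 were lower at an unadjusted p under 0.05 (50.8%, against 9.74% of all genes) and 5 were higher (4.24%, against 7.28%), and the median log2 change was -0.39. Only Bcl2l1 fell with adjustment. Without week 12 replicate 1 and week 14 replicate 8, 43 of the 118 passed a limma adjusted p of 0.05 as lower and 1 as higher, against 2.75% and 1.84% of all genes, and the median was -0.48. Those counts are a description, since the choice of the pair favours larger changes.

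Genes of the red cell membrane and skeleton had the lowest median of the 36 lists. At an unadjusted p under 0.05, 17 of 26 were lower and none was higher. Lower means were found for 24 of 26, where 43.5% of all genes had higher means. Kel had a log2 signal of 6.23, 7.88 and 8.28 at week 12 and of 4.01, 5.76 and 7.86 at week 14, with 6 of 8 arrays of week 14 below all of week 12 (change -1.67, limma adjusted p = 0.119). Ermap, the membrane protein that carries the Scianna blood group, measured 6.01, 7.10 and 8.19 at week 12 and 4.23, 5.38 and 7.58 at week 14 (change -1.48, limma adjusted p = 0.0736). Slc4a1, the anion exchanger band 3 and the most abundant membrane protein of red cells, measured 12.00, 12.21 and 12.49 at week 12 and 10.08, 11.56 and 12.19 at week 14 (change -0.78, limma adjusted p = 0.0955), again with 6 arrays below all of week 12. The skeleton proteins beta spectrin (Sptb, -1.40), protein 4.2 (Epb42, -1.46), ankyrin (Ank1, -1.15) and dematin (Dmtn, -1.12) had changes of the same sign, with limma adjusted p of 0.151 to 0.247. Without both ringed arrays the log2 changes of Kel, Ermap and Slc4a1 were -2.14, -1.92 and -0.92.

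Reticulocyte maturation genes, most of which serve the removal of organelles and proteins by ubiquitin and autophagy, were lower for 15 of 21 members at an unadjusted p under 0.05 and higher for 1. Beside Bcl2l1, the largest differences were in Xpo7, a nuclear export receptor needed for chromatin condensation (-1.43), Usp15, a deubiquitinase (-1.30), and Marchf8, which removes the transferrin receptor (-1.13). Ube2o, the enzyme that tags ribosomes for destruction in reticulocytes, had a log2 signal of 10.74, 11.20 and 11.49 at week 12 and of 8.66, 10.18 and 11.47 at week 14, with 7 of 8 arrays below all of week 12 (change -1.01, limma adjusted p = 0.117). The exception was Tmem86b, at 0.65, by a probe set with a mean of 3.60 over all arrays, below the median of all values, 3.89. Its dimmer probe sets had log2 changes of -0.34 and -0.09 (limma adjusted p = 0.39 and 0.791). None of Xpo7, Usp15, Marchf8, Ube2o and Tmem86b passed the adjusted test with all arrays, and any members of a list named beyond its 5 with the largest test statistic, here and in the other lists, were chosen after their values were seen. The list mean per array was 9.49, 9.92 and 10.21 at week 12 and 8.81, 9.35 and 10.01 at week 14 (lowest, median and highest), where the highest value was replicate 8.

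The other erythroid lists had smaller medians. Red cell enzymes were lower for 10 of 18 members at an unadjusted p under 0.05 (median -0.32), led by the glyoxalase Hagh (-1.26) and the biliverdin reductase Blvrb (-1.18). Heme synthesis genes were lower for 5 of 13 (median -0.20), with Glrx5, which assembles iron-sulfur clusters, at -1.18, and Alas2, the first enzyme of the pathway in red cells, at -0.15. Iron handling genes were lower for 3 of 14 and higher for 1 (median -0.06). Erythroid transcription factors and signalling genes went both ways, with 8 of 20 lower and 3 higher (median -0.32). Klf1, the factor that switches on adult beta globin, measured 6.23, 7.68 and 7.91 at week 12 and 4.51, 6.10 and 6.84 at week 14 (change -1.49, limma adjusted p = 0.0736), and Klf13, Cited2 and Stat5a were the members with higher signal (0.57, 0.53 and 0.41).

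Of 6 globins, 2 were lower at an unadjusted p under 0.05 and none passed the adjusted test (median -0.36). Hba-a1 and Hbb-b2, the adult alpha and beta globins and the brightest of the list, sat near the top of the measured range, between 13.14 and 13.65 on all 16 arrays, with changes of -0.09 and 0.04 (limma adjusted p = 0.607 and 0.742), and signals this high may be compressed. Dimmer probe sets had changes of -0.07 and -0.12 for Hba-a1 and of -0.29 and -0.52 for Hbb-b2 (limma adjusted p = 0.372 to 0.716). Hba-a2, an adult alpha globin nearly identical to Hba-a1 so that their probe sets may share transcripts, measured 10.34, 11.04 and 11.22 at week 12 and 9.34, 10.11 and 11.08 at week 14 (change -0.87, limma adjusted p = 0.0601), with 7 of 8 arrays below all of week 12. The embryonic globin Hbb-y had a change of -1.30 (limma adjusted p = 0.113).

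The median shift of membrane genes was -0.41 when the interquartile range of each array was a covariate of the fit, and that of reticulocyte genes was then -0.46. Within the 8 arrays of week 14 the list means of membrane and reticulocyte genes were lower where the range was wider. Pearson's r was -0.88 and -0.81 (exact permutation p = 0.00278 and 0.00499, adjusted over 8 relations 0.0199 for both; Spearman's rho -0.81 and -0.76, exact permutation p = 0.0218 and 0.0368, adjusted 0.122), and -0.66 and -0.56 without the 2 arrays farthest from the median range. Within week 12 Pearson's r was -0.515 for membrane and -0.601 for reticulocyte genes (exact permutation, adjusted p = 0.19 and 0.126). The range is computed from the same probe sets, so that the direction of this relation cannot be read from it.

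**Figure D3:**
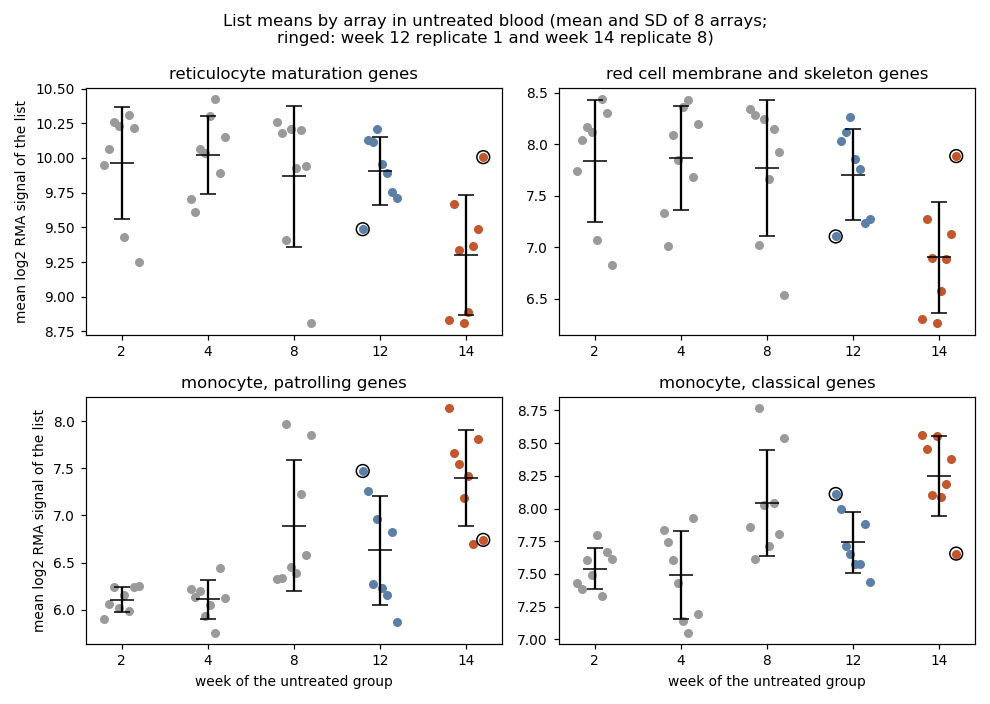
Mean log2 RMA signal of 4 gene lists on each array of untreated mice, by week (grey, weeks 2, 4 and 8; blue, week 12; orange, week 14), with the mean and SD of 8 arrays and with week 12 replicate 1 and week 14 replicate 8 ringed. The means of the red cell lists are lowest and those of the monocyte lists highest at week 14, and some arrays of week 8 have monocyte values like those of week 14.

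Monocyte genes were higher at week 14. Of 21 patrolling monocyte genes all 21 had higher means, against 43.5% of all genes. At an unadjusted p under 0.05, 16 were higher (76.2%, against 7.28% of all genes), yet none passed the adjusted test with all arrays. Without both ringed arrays, a choice that favours larger changes, 10 of 21 passed it as higher and the median was 0.99. Smpdl3b, a lipid phosphodiesterase of myeloid cells, measured 4.35, 5.60 and 8.44 at week 12 and 6.65, 8.24 and 9.48 at week 14 (change 1.94, limma adjusted p = 0.0736), with 3 arrays of week 14 above all of week 12. Cx3cr1, the fractalkine receptor that marks these cells, measured 5.74, 6.56 and 7.65 at week 12 and 6.72, 7.65 and 8.24 at week 14 (change 1.04, limma adjusted p = 0.0736). Both genes overlapped between the weeks.

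Treml4, a receptor of patrolling monocytes, measured 6.98, 7.71 and 9.34 at week 12 and 7.61, 9.16 and 10.43 at week 14 (change 1.21, limma adjusted p = 0.0974). Nr4a1, the factor these cells depend on, had a change of 1.13, Fcgr4, an Fc receptor for IgG, of 1.12, Adgre4, an adhesion receptor, of 0.97, and Ace, the angiotensin-converting enzyme, of 0.88, with limma adjusted p of 0.126 to 0.231. Fcgr4 shows the overlap: its highest array was of week 12, at 9.11, above the highest of week 14, 9.03. The list mean per array was 5.87, 6.55 and 7.47 at week 12 and 6.69, 7.48 and 8.14 at week 14, and the highest of week 12 was replicate 1.

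Of 28 classical monocyte genes 18 were higher at an unadjusted p under 0.05 (64.3%), none was lower and none passed the adjusted test. Plac8, a small protein of myeloid and lymphoid cells, measured 8.91, 9.31 and 9.999 at week 12 and 9.70, 10.14 and 10.49 at week 14, with 5 of 8 arrays above all of week 12 (change 0.76, limma adjusted p = 0.0601). Ccr2, the receptor by which classical monocytes leave the marrow, measured 5.98, 7.33 and 7.69 at week 12 and 7.07, 8.26 and 8.52 at week 14, with 6 arrays above all of week 12 (change 0.89, limma adjusted p = 0.0787). Klf4, a factor of monocyte differentiation (0.85), Mpeg1, the pore-forming perforin of macrophages (0.83), and Csf1r, the receptor for the monocyte growth factor (0.80), had changes of the same sign, with limma adjusted p of 0.0689 to 0.222. Without both ringed arrays, a choice that favours larger changes, 12 of 28 passed as higher, with a median of 0.65.

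With the interquartile range as a covariate the median was 0.62 for patrolling and 0.33 for classical genes, and the relation of classical genes with that range within week 14 rested on 2 arrays (Pearson's r 0.825, exact permutation p = 0.0218, adjusted 0.0408, Spearman's rho 0.74, exact permutation p = 0.0458, adjusted 0.122, and r 0.01 without the 2 arrays farthest from the median range). For patrolling genes at week 14 Pearson's r was 0.607 (exact permutation, adjusted p = 0.126), and -0.476 without the 2 farthest arrays. Within week 12 it was 0.73 for patrolling and 0.77 for classical genes (exact permutation, adjusted p = 0.0408 for both), and 0.278 and 0.284 without the 2 farthest arrays. Spearman's rho at week 12 was 0.595 and 0.571 (exact permutation, adjusted p = 0.242 for both). Among 38 genes of macrophage lipid and lysosome handling 10 were higher and 4 lower at an unadjusted p under 0.05, where 7.28% of all genes were higher and 9.74% lower. Lpl, lipoprotein lipase, measured 2.55, 5.29 and 5.81 at week 12 and 5.72, 6.71 and 7.83 at week 14, with 6 arrays above all of week 12 (change 1.95, limma adjusted p = 0.0736). Spic, a factor of macrophages that recycle iron from red cells, measured 3.53, 4.97 and 5.95 at week 12 and 5.35, 6.53 and 6.72 at week 14 (change 1.48, limma adjusted p = 0.0877).

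The other lists of blood cells and processes set the red cell and monocyte genes in context. Mature neutrophil genes were higher for 3 of 24 and lower for none, T cell genes higher for 1 of 28, B cell genes for 2 of 25 and NK and cytotoxic genes for 6 of 31, with no list member lower, at an unadjusted p under 0.05, where 7.28% of all genes were higher and 9.74% lower. The T cell (3.57%) and B cell (8%) shares lay below or near that of all genes. Platelet genes had lower means for all 23 members, where 43.5% of all genes had higher means, and were lower for 7 (median -0.19). Eosinophil genes were lower for 4 of 9, among them Alox15 and Ccr3, the eotaxin receptor. The groups of Ccr3 did not overlap (2.35, 2.61 and 2.95 at week 12 and 1.69, 1.99 and 2.33 at week 14), as for 0.135% of all genes in this direction. Its signal lay near the bottom of the arrays' range (limma adjusted p = 0.205).

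At the same threshold, which 7.28% of all genes passed as higher and 9.74% as lower, interferon-induced genes were higher for 15 of 39 (38.5%) and lower for 2 (median 0.37). Among them were Gbp3 at 1.02 and Irgm1 at 0.90, both GTPases of cell defence. MHC class II genes had higher means for all 11, against 43.5% of all genes, and were higher for 4 (median 0.33), led by H2-DMa, which loads peptides, at 0.86. MHC class I genes were higher for 6 of 13 and lower for 1 (median 0.33). Cell cycle genes were lower for 12 of 41 (29.3%, median -0.17). Mki67, the proliferation antigen, measured 7.46, 8.55 and 9.32 at week 12 and 6.17, 7.02 and 8.13 at week 14, with 6 of 8 arrays below all of week 12 (change -1.53, limma adjusted p = 0.0656), and the cyclin Ccna2 had a change of -1.54 (limma adjusted p = 0.081). None of the 26 heat shock genes reached an unadjusted p of 0.05 in either direction. Among 29 immediate early genes, which respond to handling of blood cells, 5 were higher (17.2%) and 3 lower (10.3%). No member of the lists in this and the preceding paragraph passed the adjusted test except Alox15.

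**Figure D4:**
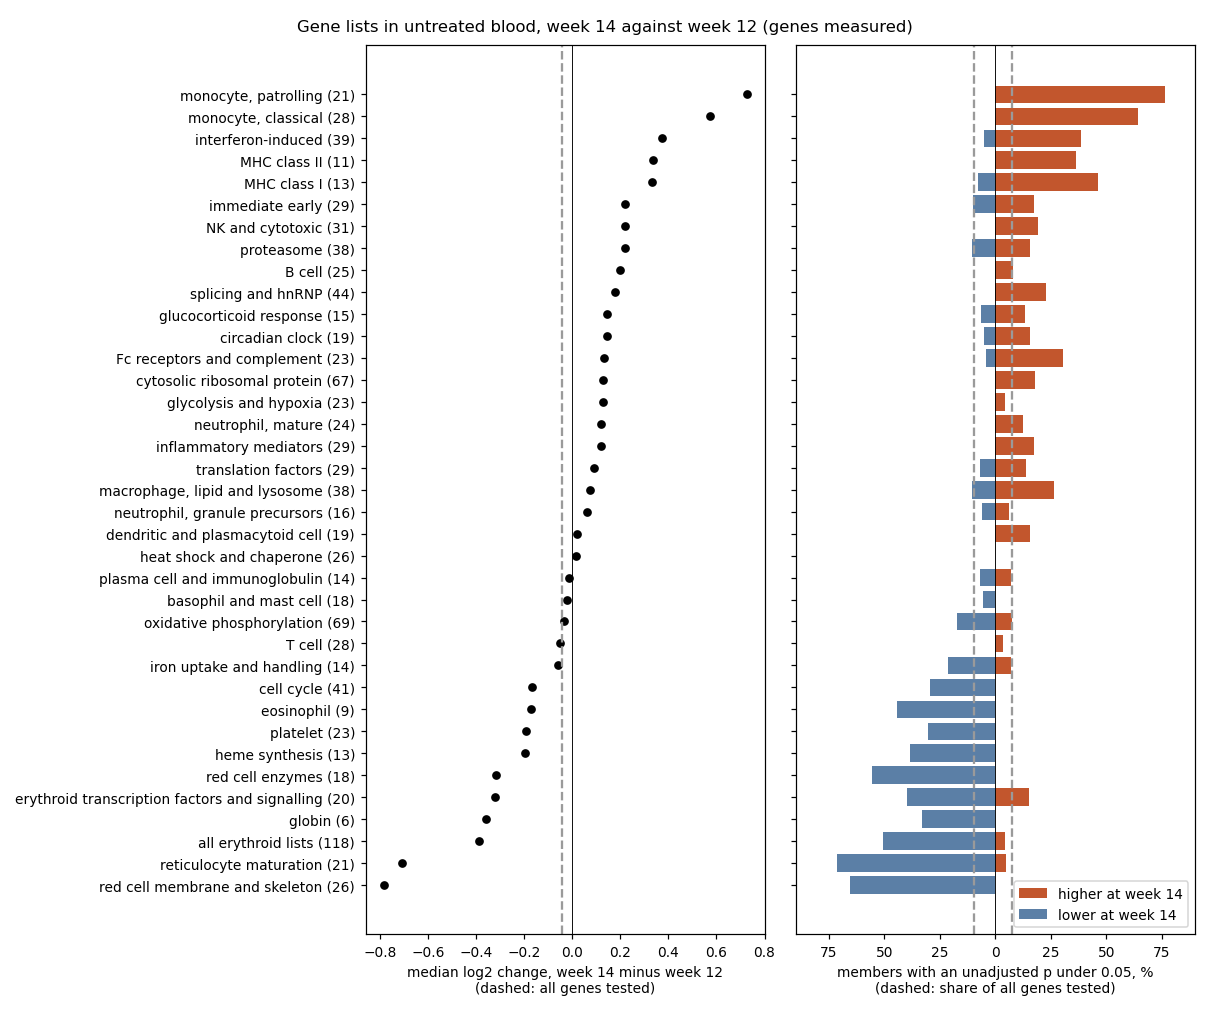
Left, the median log2 change from week 12 to week 14 in untreated mice of each gene list (number of measured genes in brackets), and right, the percentage of its members higher (orange) or lower (blue) at an unadjusted p under 0.05. Dashed lines give the same for all 17097 genes tested. Patrolling and classical monocyte lists have the highest medians, 0.73 and 0.57, and red cell membrane and reticulocyte maturation lists the lowest, -0.78 and -0.71.

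Each of the weeks was then set against the mean of untreated weeks 2, 4 and 8, 24 arrays that both comparisons share. At week 12 no gene was called (limma, 0%), with 588 genes higher (3.44%) and 760 lower (4.45%) at an unadjusted p under 0.05, whereas at week 14 there were 313 called genes (1.83%), 170 higher and 143 lower. With quantile normalization the split at week 14 was 115 and 195, with centring on the brightest probe sets 79 and 248, and with the interquartile range as a covariate 22 genes were called in all. The neighbouring steps had few calls as well, 0 for week 4 against 2, 7 for week 8 against 4 (0.0409%), all higher, and 0 for week 12 against 8, in each case by limma, with 966, 959 and 760 genes at an unadjusted p under 0.05.

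Against the earlier weeks, 18 of 21 patrolling monocyte genes rose at week 14 at an adjusted p under 0.05 and none fell (13.1% of all genes rose and 18.1% fell), with a median of 1.14. Of the classical genes 15 of 28 rose (median 0.48). Of the membrane genes 18 of 26 fell and 1 rose (median -0.92), and of the reticulocyte genes 17 of 21 fell and 1 rose (median -0.69). At week 12 the medians of the same lists were 0.31, 0.04, -0.11 and -0.03, and no member passed. Cybb was 1.68 above the earlier weeks at week 14 (limma adjusted p = 1.56e-07) and 0.40 above them at week 12 (adjusted p = 0.636). Smpdl3b was 2.75 above them at week 14 (adjusted p = 1.26e-05) and 0.81 at week 12 (adjusted p = 0.64), and Kel was at -1.64 (adjusted p = 0.00403) and 0.03 (adjusted p = 0.99).

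Monocyte genes were uneven before week 14. The list mean of patrolling genes per array was 5.90, 6.11 and 6.26 at week 2 (lowest, median and highest), 5.76, 6.13 and 6.44 at week 4, and 6.32, 6.51 and 7.98 at week 8. Replicates 3 and 8 of week 8, at 7.98 and 7.86, lay above the median of week 14, 7.48. The same arrays had list means of 8.77 and 8.54 for classical, 7.02 and 6.54 for membrane and 9.41 and 8.81 for reticulocyte genes. The lowest arrays of weeks 2 and 8 in the reticulocyte list, 9.25 and 8.81, likewise lay at or within the range of week 14. In mice with spontaneous disease, whose week 36 is an age, the patrolling list mean was 6.56, 7.42 and 7.68 and the reticulocyte list mean 8.60, 9.86 and 9.97.

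The same interval was compared in pristane-treated mice, whose 16 arrays share none with the untreated mice. In the treated mice 86 genes were called (0.503%), 36 higher and 50 lower. The median of the patrolling list was 0.08, of the classical list 0.03, of the membrane list -0.18 and of the reticulocyte list -0.33, and none of the 21 patrolling, 28 classical and 26 membrane genes passed an adjusted p of 0.05, while 2 of 21 reticulocyte genes rose and 1 fell, against 2.2% and 1.32% of all genes. Across 17097 genes, which are not independent replicates, the changes over the interval in untreated and treated mice had a Pearson correlation of 0.035 and a Spearman correlation of 0.0222. The Gapdh 3′-5′ difference was 1.64 ± 0.32 at week 12 and 2.13 ± 0.38 at week 14 in treated mice (SD, n = 8 each). In untreated mice it was 1.80 ± 0.27 and 2.02 ± 0.19. The part of RNA quality in the treated comparison and in the difference between the treatments was not tested.

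The difference between the 2 treatments in the week change was tested as an interaction over all 88 arrays, and 218 genes were called (1.28%), 69 with a change more positive in pristane-treated mice and 149 with one more negative. The split depended on the scaling and was 107 to 130 with quantile normalization, 125 to 118 with centring on the brightest probe sets and 169 to 95 with the interquartile range as a covariate, and without both ringed arrays it was 92 to 264. Of the 8 genes called in untreated mice, Tcf7l2, Tbc1d9, Cybb and Klf11 differed between the treatments, with changes in treated mice of -0.58, -0.25, -0.62 and -0.27 (limma interaction adjusted p = 0.00976, 0.0242, 0.00124 and 0.018). The 4 lower genes did not pass (adjusted p = 0.0673 to 0.879). Borcs8 was lower in treated mice as well, with a change of -0.92 (-1.37 to -0.47, limma adjusted p = 0.00963), and its difference between the treatments was 0.13 (adjusted p = 0.879).

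For the lists as wholes the interaction was found in few members. Of the classical monocyte genes, Ccr2 and Plac8 differed (limma interaction adjusted p = 0.0156 and 0.0308), with changes in treated mice of -0.53 and -0.14, and no patrolling gene did. Of the 118 erythroid genes 8 had a more positive change in treated mice and 2 a more negative one, against 0.877% and 1.28% of all genes at an adjusted p under 0.05. The 8 include Epor, the erythropoietin receptor, at -0.73 in untreated and 0.63 in treated mice (interaction adjusted p = 0.00476), the red cell water channel Aqp1 (-0.72 and 0.57, 0.0364), and the factors Gata1, Gfi1b and Tal1 (adjusted p = 0.0451, 0.0437 and 0.0117). Cited2 and Klf3 had the more negative change (0.0273 and 0.0277). Among platelet genes, 5 of 23 had a more positive change in treated mice, for example Itga2b, the platelet integrin, at -0.56 and 0.72 (interaction adjusted p = 0.00137).

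**Figure D5:**
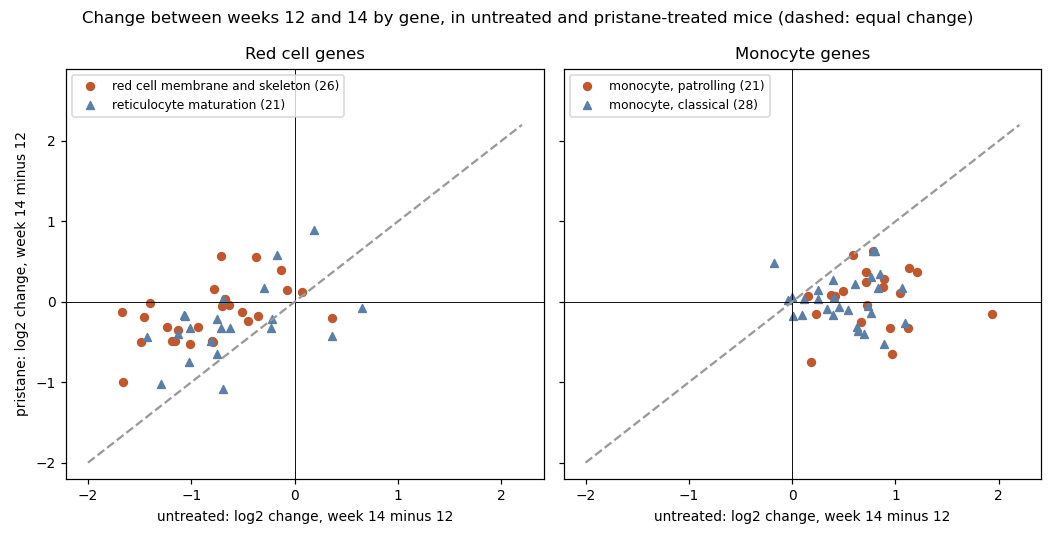
Log2 change from week 12 to week 14 of each gene of the red cell lists (left) and monocyte lists (right), in untreated mice on the horizontal axis and in pristane-treated mice on the vertical axis; the dashed line marks equal change. In untreated mice 24 of 26 membrane genes lie below 0 and all patrolling monocyte genes above it, with medians of -0.78 and 0.73, while in treated mice they lie around medians of -0.18 and 0.08. Of all genes tested, 43.5% had a higher mean at week 14 in untreated mice.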

How the data were processed

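Whole-blood RNA was amplified and labelled with the NuGEN Ovation kit and hybridised to Affymetrix HT MG-430 PM arrays. The deposited values are log2 signals that the authors made by RMA (Partek is also named in the submitters' processing notes), from 0.7362 to 13.75. These values were used without further scaling. A linear model with 11 group means was fitted to all 88 arrays (limma 3.58.1, R 4.3.3) on 45037 probe sets, with 104 control probe sets left out, and p-values were adjusted over all 45037. Calls required an adjusted p below 0.05 together with a change above 2-fold, thresholds that the study applied to its blood data. A single-gene probe set was available for 28898 probe sets, 551 named several genes and 15588 named none. Each of 17097 genes was represented by its brightest such probe set. Genes named are those passing the adjusted p, in each list the 5 whose moderated t was furthest from 0, the globins, and the 5 largest called changes each way in pristane-treated mice (not described here) and in the difference. The comparison, its 36 gene lists and the alternatives were chosen with earlier results of these data known. The script that makes the calls was tested on simulated data with known changes. The promoters are those of RefSeq (GRCm38.p6). The number of arrays limits the precision.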

Additional observations from a re-analysis of the deposited data

Results flagged for a closer look

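Of 38 groups of 8 arrays tested for a single sample far from the others, 4 held one, where chance gives about 1 in 20. Week 14 replicate 8 had an interquartile range of 3.089, against 3.473 to 3.783 on the other 7 arrays. The same array had a log2 signal of 5.035 for Tbc1d9, against 6.428 to 7.47, and of 5.175 for Tcf7l2, against 6.367 to 7.132. Week 12 replicate 1 had 10.18 for Bcl2l1, against 10.87 to 11.29. Calls for these genes were also made without each of both arrays.

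The change from week 12 to week 14 differed between pristane-treated and untreated mice for 218 genes (limma interaction, adjusted p under 0.05 and over 2-fold), and the 5 largest differences in each direction are given here as log2 values, treated minus untreated. Those more positive in treated mice were Prss39 (1.912, adjusted p = 0.0166), Mgll, the lipase of monoacylglycerols (1.895, 0.028), Itgb5, an integrin chain (1.837, 0.00038), Lamc1, a laminin chain (1.655, 0.00164), and Grap2, an adaptor of T cell and platelet signalling (1.652, 0.00829). In untreated mice these genes had changes of -1.43 to -0.52 and in treated mice of 0.46 to 1.30. Those more negative in treated mice were Efnb2, an ephrin ligand (-2.665, 0.00361), Tcf7l2 (-2.336, 0.00976), Rbm47, an RNA-binding protein (-2.099, 0.013), Cbl, a ubiquitin ligase (-1.989, 3.58e-05), and Rprd2 (-1.939, 0.000417). In untreated mice they had changes of 0.54 to 1.76 and in treated mice of -1.40 to -0.58. Dimmer probe sets in untreated mice went both ways for some genes. Their log2 changes were 0.20 for Lamc1, 1.19, -0.23 and -0.01 for Efnb2, 0.52 and -0.23 for Cbl and -0.18 to 0.61 for Rprd2. Those of Mgll, Itgb5, Grap2 and Tcf7l2 kept the sign. Of these 10 genes only Tcf7l2 passed the adjusted test in untreated mice alone. In treated mice alone Prss39, Itgb5, Lamc1, Cbl and Rprd2 passed it (limma adjusted p = 3.74e-05 to 0.0154). Mgll, Grap2, Efnb2, Tcf7l2 and Rbm47 did not (limma adjusted p = 0.0528 to 0.616).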

How the results depend on the processing

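The numbers of called genes depended on the processing. Against 4 higher and 4 lower genes, the counts were 23 and 60 in a fit of the 16 arrays alone, 2 and 1 in the 40 untreated arrays, 3 and 16 with quantile normalization, 1 and 1 with centring on the brightest probe sets (which moved the median of all genes from -0.04 to -0.16), 0 and 1 with the interquartile range as a covariate, 70 and 157 with array weights and 18 and 35 without dim probe sets. Leaving out 1 array gave 0 to 40 higher and 0 to 90 lower genes, and leaving out both ringed arrays, an alternative added after seeing the data, 114 and 158. The medians with 1 array left out were -0.84 to -0.64 for reticulocyte, -0.87 to -0.70 for membrane, 0.63 to 0.90 for patrolling and 0.47 to 0.66 for classical genes, and with the range as a covariate they were -0.46, -0.41, 0.62 and 0.33. Week 14 against earlier weeks gave 22 calls with the range as a covariate and 5322 without a fold threshold, the pristane comparison 601 and the difference 368 without it, and the difference 356 without both arrays. None of these 4 medians and none of the 12 genes passing the adjusted p changed sign under the alternatives run, but which direction held more calls did change: the difference went from 69 more positive and 149 more negative to 125 and 118 with centring and 169 and 95 with the range as a covariate, and week 14 against earlier weeks from 170 higher and 143 lower to 115 and 195 with quantile normalization and 79 and 248 with centring. Each of the 12 genes kept an adjusted p under 0.05 in 10 to 14 of 27 alternatives. The causes were not tested. Both groups carry replicate numbers 1 to 8, and the labels do not say what a number marks. Same-numbered arrays deviated together in some pairs and not in others (correlations of 0.608, 0.284 and 0.333 for numbers 1, 2 and 8, and of -0.009 to 0.077 for the other 5, with 4 of 8 best matched to their own number). With the replicate number as a block, 55 higher and 78 lower genes were called, 133 against 83 in the fit of the same 16 arrays without it.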

Other observations

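Housekeeping lists had medians closer to 0. Ribosomal protein genes had higher means at week 14 for 60 of 67 members and were higher for 12 at an unadjusted p under 0.05 (17.9%, median log2 change 0.13), and splicing genes for 39 of 44 and 10 (22.7%, median 0.18). Of all genes tested, 43.5% had higher means. Of 69 oxidative phosphorylation genes 5 were higher (7.25%, against 7.28% of all genes) and 12 lower (17.4%, against 9.74%). Cox7c, a subunit of cytochrome c oxidase, had all 8 arrays of week 14 above all of week 12, as had 0.17% of all genes (change 0.59, limma adjusted p = 0.0742). Ndufa1, a subunit of complex I, had 7 arrays of week 14 below all of week 12 (change -1.04, limma adjusted p = 0.0736). Psmf1, a proteasome inhibitor, had a change of -1.25 (adjusted p = 0.0689), with 7 arrays below all of week 12, whereas 31 of 38 proteasome genes had higher means.

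Among the leading members of other lists, 3 genes chosen after their values were seen had higher means at week 14. Fpr2, the formyl peptide receptor, measured 8.16, 8.76 and 9.96 at week 12 and 9.39, 10.07 and 10.79 at week 14 (lowest, median and highest, limma adjusted p = 0.0736). Tlr7, the receptor for single-stranded RNA, measured 4.37, 5.61 and 6.20 at week 12 and 6.11, 6.53 and 7.45 at week 14, with 6 of 8 arrays above all of week 12 (adjusted p = 0.0787). H2-M3, a class I molecule that presents formylated peptides, was above all of week 12 on all 8 arrays (change 0.93, adjusted p = 0.0736), a lack of overlap that 0.17% of all genes showed in this direction. None of these genes passed the adjusted test.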
